A study of Mus musculus with 8 samples.

Results

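The array carried 24 mouse miRNAs named miR-297, miR-466, miR-467 or miR-669, of 566 mouse miRNAs in all. They were taken by name alone, whatever their signal: 3 miR-297, 10 miR-466, 8 miR-467 and 3 miR-669 names, read by 77 of the 1672 mouse probes. Brown adipose tissue came from 6 male C57Bl6N mice aged 8 weeks with no transgene or deletion named. The cold group was 3 mice (numbers 1 to 3) held at 8 °C for 24 h, and the control group was 3 mice (4 to 6) held at room temperature, 21 °C. Total RNA was labelled with Cy3 and hybridised to 1-colour Agilent miRNA arrays. Mouse 1 and mouse 4 had 2 arrays each, which were averaged, so the 8 arrays give n = 3 mice per group. In bulk tissue such as this, fewer cells of a type and less RNA per cell cannot be told apart.

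These miRNAs are known from a rodent repeat array. Many near-identical copies of their hairpins lie in an intron of Sfmbt2, which encodes a Polycomb-group protein and is an imprinted gene expressed from the paternal copy in early embryo and placenta. Each hairpin gives a UG-rich strand from one arm and an AC-rich strand from the other, and a star in an array name marks the arm once held to be the minor product. The cluster is best known from placenta. Because the copies differ by a few bases, a probe for one name may also bind the product of another, so the members are not independent measurements.

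RefSeq's genes for mouse (GRCm38.p6) were searched for the precursors. There 71 miRNA genes lie inside Sfmbt2, and all 71 belong to these families. By name, 22 of the 24 members matched a precursor gene. Of these, 18 had all their precursors inside Sfmbt2, 3 (miR-466f-3p, miR-466f-5p and miR-297a*) had precursors inside and outside, and miR-669n had its precursor outside only, on chromosome 3. Several members have many copies there, for example 12 precursor genes for miR-669a and 10 for miR-467a.

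The repeat character can be read from mature sequences in RefSeq (GRCm38.p6), written 5′ to 3′ with the seed, bases 2 to 8, in capitals. Of the 24 members, miR-669n matched by exact name. It is shown with miR-574-5p, a UG-repeat miRNA of the array outside the families, because their values are set side by side further on. The next 3 are family names that the array does not carry, shown as examples of the UG-rich and the AC-rich kind.
miR-669n: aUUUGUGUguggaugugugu
miR-574-5p: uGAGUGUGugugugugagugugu
miR-466k: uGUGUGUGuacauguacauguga
miR-466i-3p: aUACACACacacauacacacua
miR-467f: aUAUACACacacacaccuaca
They lie at chr3:115979905-115979924 (plus strand), chr5:64970328-64970350 (plus), chr3:85467396-85467418 (plus), chr13:17747552-17747573 (plus) and chr11:69635419-69635439 (minus), in that order. The run UGUGUGUG was present in 7 of the 1679 mature sequences of that table (0.417%) and ACACACAC in 4 (0.238%), each searched in the mature strand as written. No other mature sequence in the table shared the seed of miR-669n. Of these families, the table held miR-669n and 7 names that the array does not carry. The strands of the other members were therefore not searched, for the runs or for the seed. The 5 printed strands have 5 different seeds, although 3 of them hold the same UG run and the other 2 the same AC run.

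Signal is the scanner software's background-subtracted intensity per spot, averaged over a probe's spots, in units of the software. A probe is called above background on an array when the software's flag was set on over 0.5 of its spots. Most members gave little signal in this tissue. By that rule 10 of the 24 were above background on any array, and 14 were not above background on any. Of the 77 probes, 8 were above background on all 8 arrays, 16 on some and 53 on none. A miRNA entered the test through probes above background on all arrays of either group, as 6 members did: miR-466f-3p, miR-466g, miR-467a-1*, miR-467b*, miR-467e* and miR-669n.

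Signal over the negative controls, spots with no target, was measured over the spots of all 24 members, dim ones included. After outlier-flagged spots were left out, 479 to 493 of the 500 member spots and 644 to 663 of the 672 negative spots remained per array. The negative spots had a 95th percentile of 4.42 ± 0.655 units in cold mice, against 3.35 ± 0.277 at room temperature (SD, n = 3). In the cold mice 38.4%, 42.4% and 40.0% of member spots exceeded it, and at room temperature 43.4%, 39.8% and 49.8%. The groups overlapped. Over spots of all mouse miRNAs the shares were 35.2% ± 1.80 in the cold and 39.9% ± 2.92 at room temperature (SD, n = 3). Over the spots of 10 viral miRNAs, a further background, they were 19.0% ± 3.52 and 17.3% ± 4.58. In each of the 6 mice the share was higher for member spots than for viral spots.

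One room temperature mouse stood apart. Member probes above background numbered 18, 17 and 18 in cold mice 1 to 3, against 18, 9 and 19 at room temperature. Mouse 5 had the fewest, although 367 mouse probes in all were above background there, against 307.5 to 333 in the cold mice. The mean signal over member probes was 7.17, 8.02 and 8.63 units in the cold, against 6.63, 4.24 and 7.73 at room temperature. Mouse 5 was the lowest of the 6 on both counts, so results are also given without it.

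**Figure D1:**
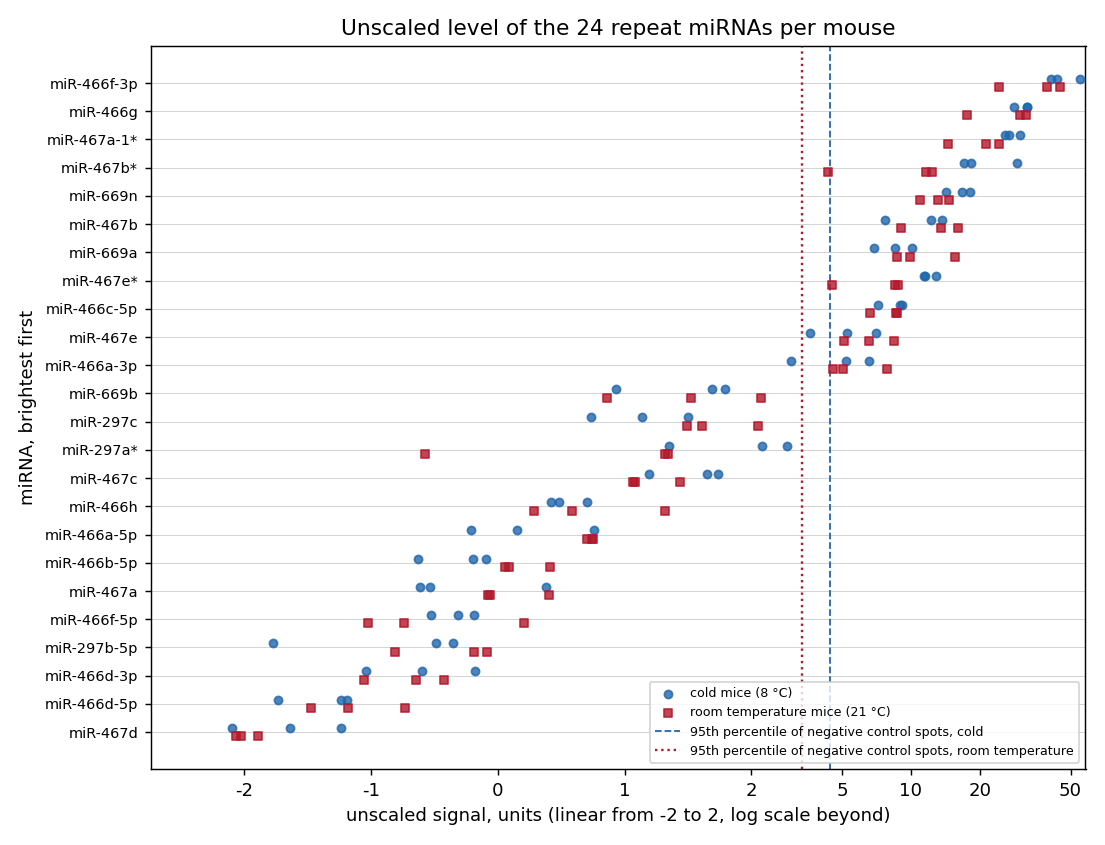
Unscaled signal of each of the 24 members in each mouse, in units (linear from −2 to 2, log scale beyond; cold mice as circles, room temperature mice as squares), with the mean 95th percentile of the negative control spots of each group as vertical lines. The 6 tested members lie right of both lines in nearly all mice, while the members never above background, apart from miR-466a-3p, lie left of them. Levels of different probes are not comparable with each other.

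For the comparison of cold with room temperature, signal was expressed relative to an array's 75th percentile over probes above background on all 8 arrays, values under 0.01 of that percentile were set to 0.01, and log2 was taken. That percentile was 793 ± 149.7 units in the cold and 1085 ± 286 at room temperature (SD, n = 3). On average, scaling therefore raises the cold mice relative to the others. The mice overlapped, with 918 units in cold mouse 3 and 863 in room temperature mouse 5. Of the 6 tested members, 5 rose in the cold and none fell, by limma with Benjamini-Hochberg adjustment across the 189 tested miRNAs at a threshold of 0.05. Over all tested miRNAs, 8.47% (16 of 189) were called higher and 6.88% (13 of 189) lower. The median change of the 6 members was 0.79 on the log2 scale, beside −0.02 over all 189. All 6 had every cold mouse above every room temperature mouse, which was so for 20.1% (38) of the 189. A member entered the test through the group where it was above background. For miR-467b*, miR-467e* and miR-669n, 3 of the 6, this was the cold group alone. These counts therefore describe the tested members and not the family.

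Members named 3p or star are taken first. miR-467b*, the star strand of a hairpin inside Sfmbt2, had the largest change of the 6. Its scaled log2 level over 3 probes was −4.87, −4.64 and −5.46 after cold, against −6.14, −6.64 and −6.53 at room temperature. Every cold mouse was higher, and mouse 5 lay at the floor. The change was 1.45 ± 0.237 (SE; limma adjusted p = 0.0106). Its size depends on the floor, at 1.71 with a floor of 0.001 and 0.66 (adjusted p = 0.138) with 0.02. Of its 12 probe values at room temperature 4 were at the floor and of those in the cold 0. Unscaled, its signal was 22.1, 34.4 and 20.9 units in the cold, and 14.4, 5.80 and 14.2 at room temperature, with no overlap.

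miR-467a-1*, the star strand of 1 of the 10 miR-467a copies, was above background on all 8 arrays with 1 of its 2 kept probes. The other kept probe was above background on 7. Of the 8 probe values of miR-467a-1* at room temperature 2 were at the floor, and of those in the cold 0. Its level was −4.61, −5.11 and −5.05 after cold, against −5.59, −6.01 and −5.99 at room temperature. Each cold mouse again lay above each room temperature mouse. The change was 0.94 ± 0.188 (SE; limma adjusted p = 0.0190). Unscaled signal was 26.9, 25.8 and 30.0 units in the cold, and 21.4, 14.5 and 24.3 at room temperature, which did not overlap either.

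miR-466f-3p, the 3p strand of hairpins that lie both in and outside Sfmbt2, was above background on all 8 arrays with 3 probes. Its level was −3.81, −4.15 and −3.90 in the cold, and −4.51, −5.02 and −4.72 at room temperature. None of its values was at the floor. The change was 0.80 ± 0.172 (SE; limma adjusted p = 0.0205). Unscaled, mouse 6 (56.9 units) lay inside the cold range of 49.9 to 66.8, so those groups overlapped.

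miR-467e* was the dimmest case that could be tested, with 1 kept probe. Its level was −5.89, −6.04 and −6.15 in the cold, and −6.62, −6.64 and −6.64 at room temperature, where 3 of 4 arrays were at the floor. The change was 0.61 ± 0.125 (SE; limma adjusted p = 0.0192). This size is set by the floor: with a floor of 0.001 it was 1.14, and with 0.02 it was 0.00 (adjusted p = 1.00). Unscaled signal was 10.6, 12.7 and 12.9 units in the cold, against 8.81, 5.12 and 9.18.

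The other 2 tested members carry no arm in their names. miR-669n, the UG-rich strand printed above, had a level of −5.46, −5.65 and −5.67 in the cold, and −6.26, −6.30 and −6.55 at room temperature. All 3 cold mice were higher, and the change was 0.78 ± 0.138 (SE; limma adjusted p = 0.0121). Of its 8 probe values at room temperature 1 was at the floor, and of those in the cold 0. Unscaled, mouse 6 (14.7 units) lay inside the cold range of 14.3 to 18.1.

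miR-466g, with 4 kept probes and above background on all 8 arrays, did not pass. Its level was −4.32, −4.92 and −4.84 in the cold, and −5.10, −5.62 and −5.47 at room temperature. The groups did not overlap, the change was 0.70 ± 0.208 (SE), and the limma adjusted p was 0.0549, with a 95% interval of 0.22 to 1.19. It passed with the slide column as a block (adjusted p = 0.0187), on first arrays only (0.0310) and without mouse 4 (0.0430). In the other 22 of 25 alternatives it did not pass. There the limma adjusted p was 0.137 on second arrays only and up to 0.613, with no scaling. Unscaled signal overlapped, at 32.1, 28.2 and 32.3 units in the cold and 30.0, 17.6 and 32.0 at room temperature.

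**Figure D2:**
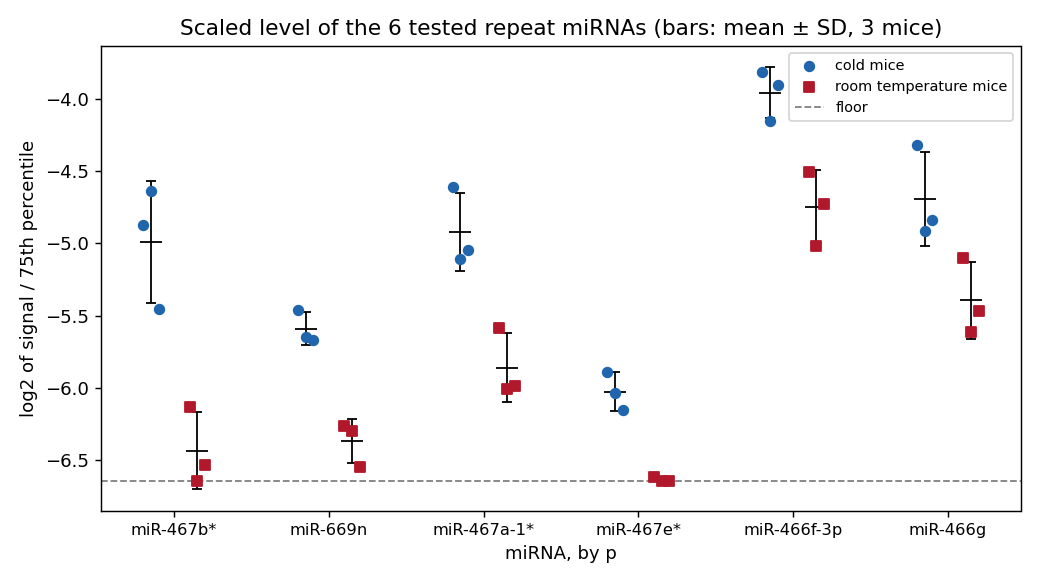
Scaled log2 level of the 6 tested members in each mouse (cold mice as circles, room temperature mice as squares, black bars mean ± SD of 3 mice, dashed line the floor), ordered by p. All cold mice lie above all room temperature mice for each of the 6, and several room temperature values of miR-467b* and miR-467e* sit on the floor.

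Probes of a miRNA could be compared with each other, since each reads the same strand. Of the 15 kept member probes, 12 were called higher in the cold and none lower, where 14.3% (47 of 329) of all kept probes were called higher. The changes ran from 0.41 to 1.50, with a median of 0.88 beside 0.04 over all kept probes. The 3 probes that did not pass were 1 of miR-466f-3p (0.41) and 2 of miR-466g (0.61 and 0.75). Of the 15, 7 had been kept through the cold group alone, where they were above background, so the count describes the kept probes and not all 77. On scaled values the kept probes of a member had the same sign throughout. With no scaling 14 of the 15 had a positive change. The exception, a probe of miR-466f-3p, gave a mean of 44.5 units in the cold and 46.2 at room temperature.

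Another 4 members were above background on some arrays but outside the test, and unscaled their groups overlapped. miR-467b, the strand opposite miR-467b*, gave 7.70, 12.2 and 13.7 units in the cold, and 9.01, 13.5 and 16.1 at room temperature. miR-467e, opposite miR-467e*, gave 5.31 ± 1.72 units in the cold and 6.67 ± 1.68 at room temperature (SD, n = 3). miR-669a gave 8.48 ± 1.60 and 11.4 ± 3.67 units, and miR-466c-5p 8.40 ± 1.10 and 7.96 ± 1.14. Scaled, the groups of miR-466c-5p did not overlap, with all cold mice higher, and those of the other 3 did. These 4 were tested with probes above background on at least 1 array and with the software's total signal, and none passed. With those probes the changes were 0.42 (miR-467b), 0.00 (miR-467e), 0.12 (miR-669a) and 0.37 (miR-466c-5p). With the total signal they were −0.14, 0.00, −0.31 and 0.19, in the same order. The groups of miR-467b and miR-467e overlapped where those of their star strands did not. The difference between strands was not tested.

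By the arm given in the name, 4 of 7 members named 3p or star were above background on any array, and all 4 were tested. Of 6 named 5p, 1 (miR-466c-5p) was above background on any array and 0 were tested, and of 11 with no arm 5 were above and 2 tested. Whether the arms differ in this was not tested.

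The 14 members never above background were near 0: their mean signal over the mice ran from −1.88 units (miR-467d) to 5.36 (miR-466a-3p), with a median of 0.21, and 7 of them were below 0. The highest, miR-466a-3p, gave 4.91 ± 1.80 units in the cold and 5.80 ± 1.77 at room temperature (SD, n = 3), with overlapping groups. Of these 14, 5 were higher in the cold unscaled and 6 scaled, and no direction is read from values at this level. For miR-467c, 1 of 10 spots of a probe on the first array of mouse 4 read 7845 units against a median of 2.31 for the others; the software had marked it as an outlier and it was left out.

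Over all 24 members, scaled and without a filter, 9 had every cold mouse above every room temperature mouse and 1 (miR-466b-5p) below. For all 566 mouse miRNAs these shares were 10.8% higher and 17.5% lower. The 9 were miR-297a*, miR-466c-5p, miR-466f-3p, miR-466g, miR-467a-1*, miR-467b*, miR-467c, miR-467e* and miR-669n. Unscaled, 4 were higher (miR-297a*, miR-467a-1*, miR-467b* and miR-467e*) and 1 lower, against 2.30% and 16.6% of all mouse miRNAs. Among the 9, miR-297a* and miR-467c were never above background.

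**Figure D3:**
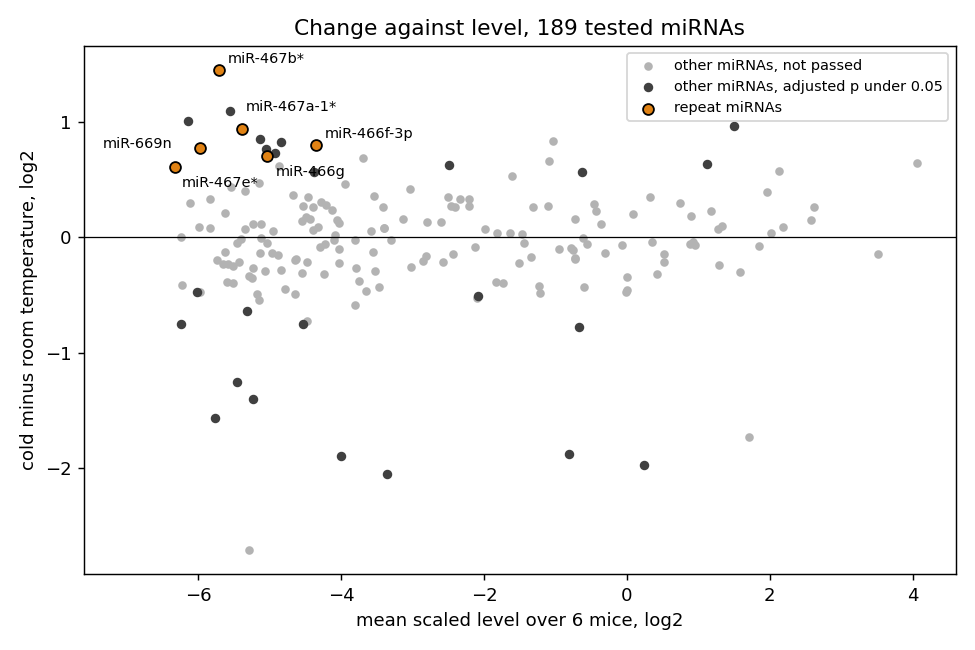
Change (cold minus room temperature, log2) against mean scaled level (log2) of the 189 tested miRNAs, with the 6 repeat miRNAs in orange and other miRNAs past the adjusted p of 0.05 in dark grey. The repeat miRNAs have changes of 0.61 to 1.45 and mean levels from −6.33 to −4.35, and other miRNAs at such levels changed both ways.

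The members' results were set beside those of miRNAs of like signal, a description only, since probes differ in brightness. Of the 48 tested miRNAs with the lowest mean scaled level, 5 were members. Among these 48, 8 were called higher, 4 of them members, and 6 lower, and their median change was −0.09. The 47 next in level held miR-466f-3p, with 4 called higher and a median of −0.02. Neither group of dim miRNAs had a median above 0.

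The scaling sets part of the sizes. With no scaling the median of all 189 miRNAs was −0.46, that of the 6 members 0.37, and 1 member, miR-467b*, was called higher (1.04, limma adjusted p = 0.0481), the 1 such call among all 189 (0.529%). The 3 kept probes of miR-467b* had entered through the cold group alone, so this call rests on that choice of probes. Unscaled, the other 5 members had changes of 0.26 to 0.50 and did not pass (limma adjusted p from 0.342 to 0.613). That unscaled fit gave each of the 6 members the same SE, 0.360, with 756 degrees of freedom, from a variance pooled across miRNAs. Pooling treats the miRNAs as independent, although they share arrays and 6 mice, so its p-values are a description. Scaled to 9 control RNAs of the array, 4 passed, where 6.88% of all miRNAs were called higher, and the median of the members was 0.76. A background model (normexp, offset 50) left the changes at 0.49 to 0.68 while all miRNAs had a median of 0.21, and no member passed, though all 6 had an unadjusted p under 0.05. At a floor of 0.02 the change of miR-467a-1* was 0.55 and of miR-669n 0.08, and miR-466f-3p (0.74) alone still passed.

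**Figure D4:**
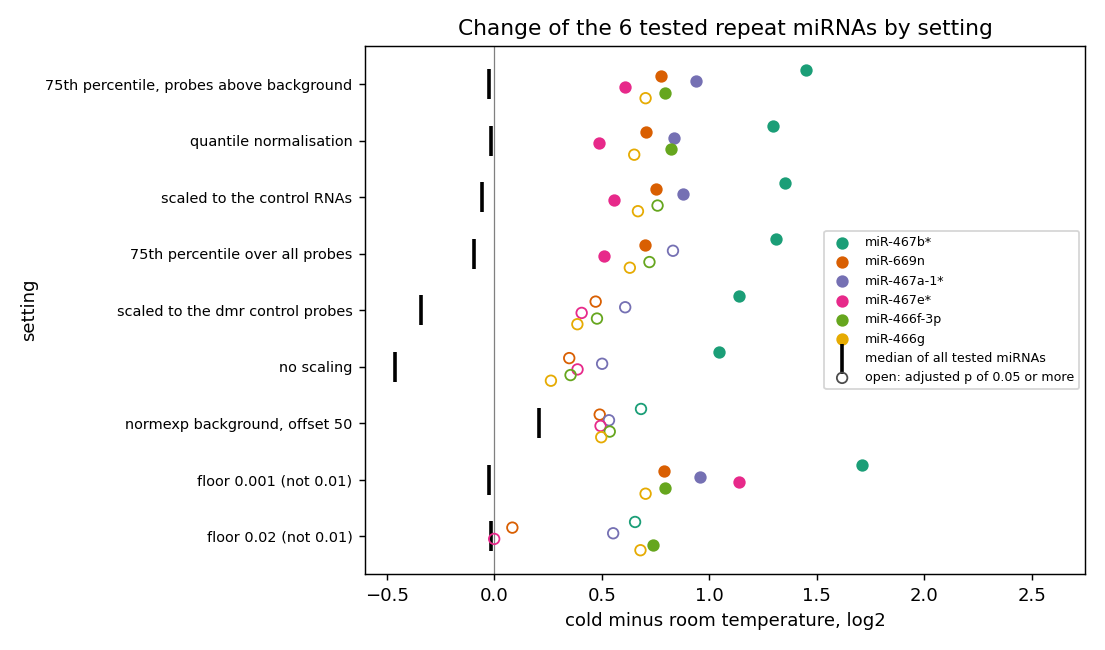
Change of the 6 tested members (cold minus room temperature, log2) under 9 settings of scaling, background and floor (filled: adjusted p under 0.05; open: not), with the median of all tested miRNAs as a bar. miR-467b* lies furthest right in the settings without a higher floor, and every point is at or above 0.

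Leaving out mouse 5 left 2 members called higher, miR-467b* and miR-669n, of 8 miRNAs called higher in all (4.23% of 189). Leaving out mouse 6 left miR-467b*, of 3 called higher in all (1.59%). The change of miR-467b* stayed between 1.27 and 1.68 with any 1 mouse left out, and it passed each time. Probes were not chosen anew for these fits, and the 3 kept probes of miR-467b* had entered through the cold group alone. With probes above background on all 8 arrays miR-467b* was not tested, so these fits do not test that choice. The change of miR-466f-3p was 0.66 without mouse 5 and 0.81 without mouse 6, with limma adjusted p-values of 0.0557 and 0.0721.

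miR-574-5p, the UG-repeat miRNA outside these families that the array could read, was above background on all 8 arrays. It gave a mean of 54.3 units in the cold and 63.8 at room temperature. Its change was 0.15 ± 0.128 (SE; limma adjusted p = 0.439), beside 0.78 ± 0.138 for miR-669n. Scaled, every cold mouse lay above every room temperature mouse for miR-574-5p too. Its level was −3.88, −4.03 and −4.03 in the cold, and −4.06, −4.08 and −4.26 at room temperature. The difference between them was not tested, and miR-574-5p was the 1 such miRNA with a matched sequence.

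Over the 6 mice the scaled levels of the 6 tested members correlated, with pairwise Pearson r between 0.852 and 0.980 as a description. These points share arrays, scaling and the group difference. With the group means taken off, r with miR-467b* was 0.588 for miR-467e*, 0.426 for miR-467a-1*, 0.415 for miR-466g, 0.347 for miR-669n and 0.153 for miR-466f-3p. Outside the members, the scaled levels most like miR-467b* were those of miR-30c-1* (r = 0.975), miR-99b* (0.963), miR-193b (0.956), miR-30d (0.933) and miR-107 (0.930), over 6 mice. With group means taken off, the r of these outside miRNAs were 0.832, 0.735, 0.686, 0.346 and 0.872.

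Markers of cell types differed between the groups, and their part in the members' changes was not tested. The 4 brown adipocyte miRNAs (miR-193b, miR-365, miR-455, miR-378) were above background on all 8 arrays and summed to 6408 to 11335 units in the cold and 7794 to 13478 at room temperature, with overlap. Scaled, 2 of these 4 rose with the repeat miRNAs, miR-193b by 0.64 and miR-378 by 0.97 (limma adjusted p = 0.0129 and 0.0219), and the other 2 did not pass. Striated muscle miRNAs summed to 1948 to 6661 units in the cold and 10502 to 24302 at room temperature over 5 miRNAs. Scaled, 3 of the 4 that were tested fell, by 1.88 to 2.05. Leukocyte miRNAs (4) summed to 407 to 914 and 1049 to 1619, and stromal miRNAs (4) to 495 to 818 and 1117 to 1722, both lower in the cold in unscaled units. Scaled, no leukocyte miRNA passed (changes from −0.55 to −0.02), while stromal miR-199a-3p and miR-214 fell by 0.77 and 0.75 (limma adjusted p = 0.0105 and 0.0121). Stromal miR-145 was not above background on any array. Liver miR-122 was 1.17 to 1.74 units in the cold and 7.01 to 177 at room temperature. Erythroid sums (3 miRNAs), at 11159 to 23968 and 11000 to 22202, overlapped, as did endothelial sums (2 miRNAs) at 7476 to 12482 and 11310 to 18880. Scaled, the 3 erythroid miRNAs had changes of 0.46 to 0.83 and did not pass (limma adjusted p from 0.0525 to 0.308). Of these, miR-451 and miR-144 had every cold mouse above every room temperature mouse. The endothelial changes were −0.15 and −0.29 (limma adjusted p = 0.531 and 0.525). All arrays lay on 1 slide with the groups in separate rows, so effects of slide row and of cold cannot be told apart.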

How the data were processed

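The deposited files hold, per the file headers, spot intensity in linear signal units after background subtraction by Agilent Feature Extraction 10.7.3.1 (the submitters' processing notes name 9.5.3.1), with other columns giving the above-background flags. The authors' deposited value table held the same intensities, with a largest difference of 0. Here, outlier-flagged and control spots were left out, spots of a probe averaged, arrays divided by their 75th percentile over the 267 probes above background on all 8 arrays, floored at 0.01 and log2 taken. Kept were probes flagged above background on over 0.5 of their spots on all arrays of either group (329 probes, 189 miRNAs), and a miRNA was the mean over kept probes. Arrays of a mouse were averaged, and groups were compared with limma 3.58.1 in R 4.3.3 with Benjamini-Hochberg adjustment. The fit was tested on simulated data. Members, lists and tests were chosen with earlier results of these data known. Named were every member above background on any array, the extremes of the others, repeat-type miRNAs outside the families, markers, and the 5 miRNAs most like the member with the smallest p. The number of arrays limits the precision. The files hold no mean-signal column, so median signal was used where mean signal had been planned. RefSeq tables gave precursor genes (by symbol or synonym) and sequences (141 array names matched).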

Additional observations from a re-analysis of the deposited data

How the results depend on the processing

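With 3 mice per group, 5 of 6 tested members were called higher, beside 8.47% (16 of 189) of all tested miRNAs. Of the 6, miR-467b*, miR-467e* and miR-669n had entered through the cold group alone. Under the percentile over all probes 3 members were called higher, beside 5.82% of all. With no scaling 1 was (0.529% of all) and with a floor of 0.02 1 (6.35%). With no filter 0 of 24 were (7 unadjusted), with 5 calls among all miRNAs and 0.353% higher. With probes above background on all 8 arrays 2 of 3 were (6.33% of all). Alternatives chosen after seeing the data gave 0 with normexp on the median signal (6 at an unadjusted p under 0.05), beside 1.06% of all. Log2 of the linear mean over probes gave 5 (10.1% of all), and scaling to the dmr control probes 1 (1.59%). With probes above background on all 8 arrays, no scaling gave 0 of 3 (0 unadjusted) and control RNA scaling 0 of 3 (3 unadjusted). In both, 0 of all 158 miRNAs were called higher. Both fits with no scaling pooled 1 variance across miRNAs, so their p-values are a description. Leaving out 1 mouse gave 1 to 6 (1.59% to 10.1% of all). Quantile normalisation, control RNA scaling, a floor of 0.001, the brightest probe, the slide column block and single arrays gave 4 to 6 of 6. The looser filter and the software's total each gave 5 of 10, the total with miR-467b and miR-669a negative. These settings gave 5.94% to 11.6% of all. No member was called lower in any of these, and each of the 6 stayed positive or at 0.00. The cause of lost calls was not tested.

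All calls numbered 29 over 189 miRNAs, and 15, 6, 5 and 16 with no scaling, normexp, no filter and the all-array filter, then 8 and 0 for the all-array filter with no scaling or with control RNAs. Leaving out 1 mouse gave 8 to 33.

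Member probes called higher numbered 12, where 47 of all 329 kept probes were called higher. They were 5 of 21 such calls with the all-probe percentile, 3 of 5 with no scaling and 7 of 30 with control RNAs. With normexp they were 5 of 21, at a floor of 0.02 5 of 34 and with dmr probes 3 of 7, all over 329 probes. No filter gave 0 calls over 1672 probes. The all-array filter gave 5 of 31 calls over 267 probes, then 0 of 1 with no scaling and 2 of 15 with control RNAs. Leaving out 1 mouse gave 5 to 13, beside 12 to 41 such calls over 329 probes.

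Members without overlap higher in the cold numbered 9, and 4 with no scaling. Those lower numbered 1, and 0 with first or second arrays only, and 2 without mouse 5, under which 14.1%, 16.1% and 29.5% of all 566 miRNAs were lower without overlap. Member spots above negative controls were 40.3% in the cold and 44.3% at room temperature, against 35.1% and 38.1% at the 99th percentile and 36.9% and 38.9% with the median signal minus background. No paired analysis was possible because the labels give the groups no shared mouse numbers. The slide column, a position and not a pairing, called 6 of 6 members as a block, and 19 of 189 miRNAs higher. Members near background have no reliable direction.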
